A study of Zea mays with 4 samples.

Results

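The histone genes of maize (Zea mays) were examined by class in RNA sequencing of endosperm, where the kernel stores starch and protein. A mutant labelled dek was set against the wild type (WT), both sampled 10 days after pollination. Members were the genes whose deposited protein description named histone H1, H2A, H2B, H3 or H4, apart from those naming a modifying enzyme, a chaperone, a kinase or a ligase. This gave 56 genes of the 34567 with a value above 0 in any library, of which 7 were H1, 15 H2A, 8 H2B, 13 H3 and 13 H4. A single gene with a class name was left out by the rule, an H2A.Z chaperone CHZ1-like gene (GRMZM2G143035). Each genotype had 2 libraries, A and B, and each library came from a pool of 8 to 10 individuals. The pools were taken from 2 segregating ears, and which pools shared an ear is not given. The labels name neither the mutated gene nor the genetic background, so the transcript of the mutated gene could not be used as a check.

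In the nucleosome, DNA is wrapped around a core built of H2A, H2B, H3 and H4, and the linker histone H1 binds where the DNA enters and leaves that core. Most core histone is made while DNA is replicated, and replacement variants are also laid down outside replication. H2A.X is the variant phosphorylated at DNA breaks, and the centromeric H3 (cenH3) takes the place of H3 at centromeres. In cereal endosperm, cell division gives way to endoreduplication, in which DNA is copied without division, so that histone demand continues while storage products accumulate.

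Variant names came from the descriptions alone. They named H2A.X for 3 genes, H2A.V, H2A.v2 or H2A variant 3 for 6 genes, H3.2 for 8 genes and cenH3 for 1 gene. No member's description named H2A.Z, H2A.W or H3.3. H2Av is the H2A.Z-type histone of Drosophila, and the maize genes with such names were put in a group only after the descriptions had been read. The annotation of 3 members held no histone entry: GRMZM2G136887, which is single myb histone 1 (SMH1), a MYB-domain protein with an H1-like part, and the H2A.v2-like genes GRMZM2G126106 and GRMZM2G413066, of which the first also carried peroxidase and pectinesterase entries. The H3.2 gene GRMZM2G387076 was annotated also as a vesicle-associated membrane protein, so its value may belong in part to another transcript.

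Histone genes are near-identical copies, and the estimated counts divided reads between them. A fractional count in at least 1 library, the mark of divided reads, was found for 40 of the 56 members. It was found for all 13 H4 genes, 11 of 15 H2A genes, 7 of 8 H2B genes, 7 of 13 H3 genes and 2 of 7 H1 genes. The division between single H4, H2A and H2B copies is therefore uncertain, and class sums depend on it less.

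Estimated counts summed to between 13119658 and 14776699 per library. Between-library scaling by the trimmed mean of M-values (TMM) gave factors of 1.128 and 1.097 for dek A and B, against 0.895 and 0.903 for WT A and B. Scaling by total counts instead moved log2 fold changes by a median of 0.307 upwards in dek, and FPKM values (fragment counts scaled to gene length and to the library's total) share that total-count scale. Starchy endosperm genes (28 genes, which are zeins apart from a zein protein-body membrane protein and an ADP-glucose pyrophosphorylase gene) took 0.635% and 0.962% of counts in dek A and B, against 5.6% and 5.36% in WT A and B, and all 26 that could be tested were lower in dek. Embryo and aleurone marker genes numbered 19, namely late embryogenesis abundant, oleosin, steroleosin and globulin-1-like genes. They took 0.0333% and 0.0306% in dek, against 0.0981% and 0.111% in WT, with 6 of 11 tested lower. Basal transfer layer genes (10 genes) took 0.239% and 0.165% in dek, against 0.0822% and 0.0231% in WT, with 2 of 10 higher. Over all genes tested with TMM, 7.98% were higher and 8.85% lower in dek. Chlorophyll-binding genes (12 genes) stayed at or below 0.000962% of counts in every library. The part of tissue makeup in the histone values was not tested, and in pooled tissue fewer cells of a type and less RNA per cell cannot be told apart.

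Histone transcripts were abundant in both genotypes. All 56 genes together reached 8389 and 8064 FPKM in dek A and B, against 8414 and 8971 FPKM in WT A and B. They took 0.851% and 0.811% of counts in dek, against 0.844% and 0.894% in WT, so the genotypes overlapped by that measure. Divided by the TMM factors, on the scale used for the single-gene calls, the sums were 7437 and 7351 in dek, against 9401 and 9934 in WT, a ratio of 0.765 with no overlap. A mean of at least 100 FPKM over the 4 libraries was reached by 32 members, and 8 members stayed under 5 FPKM. H4 genes had the highest typical level, with a class median of 221 FPKM, followed by H2B at 181, H1 at 75.2, H3 at 69.2 and H2A at 51.6 FPKM.

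The size of the histone pool in dek relative to WT thus depended on the scaling, while its makeup, by class, can be read without it. Shares within a library do not depend on scaling between libraries. H1 held 13.6% and 12.6% of histone FPKM in dek A and B, against 10.2% and 9.89% in WT A and B. H3 held 21.5% and 22.0% in dek, against 20.7% and 20.1% in WT. Both classes thus had a larger share in each dek library than in either WT library.

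H2A held 18.3% and 19.1% of histone FPKM in dek A and B, against 21.2% and 22.3% in WT A and B. H4 held 31.5% and 30.6% in dek, against 32.6% and 33.5% in WT. For both of these classes each dek library was below either WT library. H2B was the only class of the 5 whose shares overlapped, with 15.1% and 15.6% in dek, against 15.3% and 14.2% in WT.

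Class ratios followed. The ratio of H1 to core histone FPKM was 0.158 and 0.144 in dek A and B, against 0.114 and 0.110 in WT A and B, 1.35 times as high on average. H2A and H2B pair as a dimer in the nucleosome, and their ratio was 1.21 and 1.22 in dek, against 1.39 and 1.58 in WT. H3 and H4 also pair, and their ratio was 0.682 and 0.719 in dek, against 0.635 and 0.600 in WT. In none of these 3 ratios did the genotypes overlap, but with 2 libraries against 2 the smallest two-sided exact permutation p is 0.333, so ratios, shares and sums are given as values and were not tested.

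**Figure D1:**
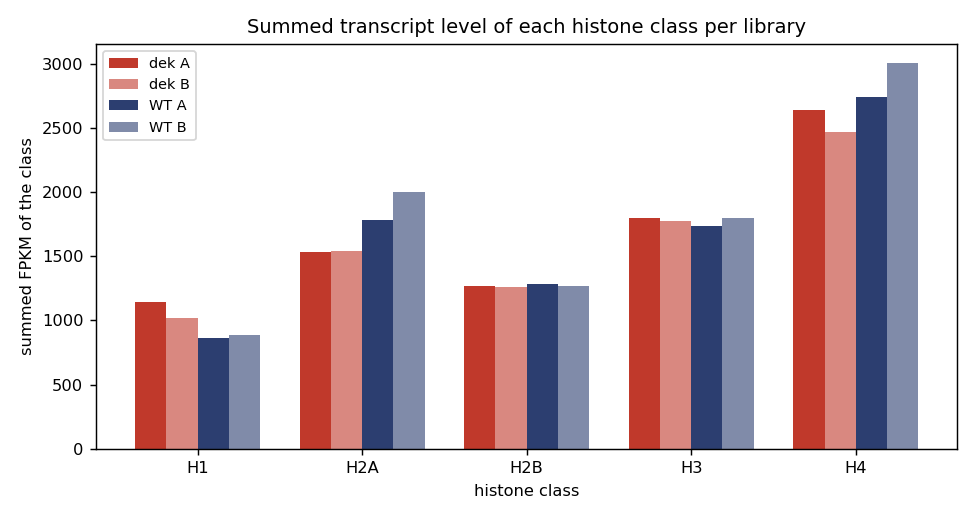
Summed FPKM of each histone class in dek A, dek B, WT A and WT B, with bars starting at 0 and genotypes in red (dek) and blue (WT). H1 sums were 1144 and 1017 FPKM in dek and 862 and 887 FPKM in WT, H2A sums were 1533 and 1539 FPKM in dek and 1783 and 2005 FPKM in WT, and the H3 bars overlap.

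Single genes were tested with edgeR's quasi-likelihood test over all 24624 genes that passed a filter on low counts, with a Benjamini-Hochberg adjusted p under 0.05 as threshold. Of 53 histone genes tested, 4 were higher and 9 lower in dek, and 40 did not pass. An edgeR unadjusted p under 0.05 was reached by 29 of the 53, beside 8428 of all 24624 genes tested. Over all tested genes, 7.98% were higher and 8.85% lower, which makes 16.8% in either direction. The median log2 fold change (dek over WT) of the histone genes was -0.24, against 0.01 for all genes tested. With total-count scaling 11 histone genes were higher and 3 lower, beside 18.3% and 5.19% of all genes (23.5% in either direction), and the histone median was 0.06. The balance of calls thus turned with the scaling: 30.8% of the histone calls were higher with TMM and 78.6% with total counts, beside 47.4% and 77.9% of the calls over all genes.

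Called under both scalings, in the same direction, were 7 members: the 4 higher ones and 3 of the 9 lower ones, namely the H2A gene GRMZM2G305046 (his2a1), the H2AXa gene GRMZM2G046055 and the H4 gene GRMZM2G016232. Each fit without 1 library leaves 1 genotype with a single library. In all 4 such fits fewer of the 13 called members passed, and calls over all genes became fewer as well. The H3 gene GRMZM2G145758 was the single one to pass in all 4 of these fits. On FPKM, both dek libraries lay above both WT libraries for 22 of the 53 tested members and below them for 16, where 51.1% and 17.0% of all tested genes did so. The 3 members too low to test were GRMZM2G413066, the H2B.5-like gene GRMZM2G442555 and the H4 TH091-like gene GRMZM2G412503, each at or under 0.26 FPKM in every library.

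**Figure D2:**
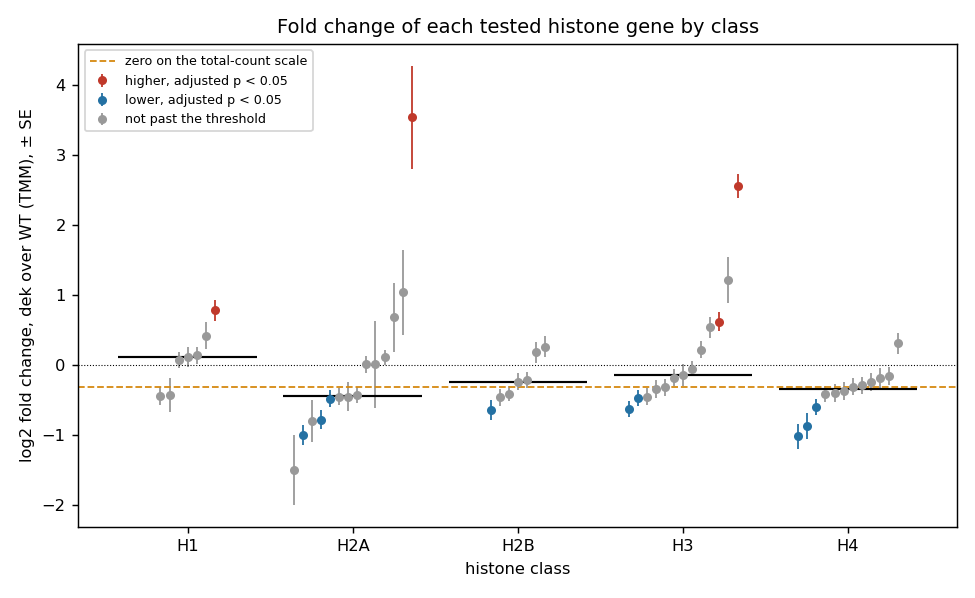
Log2 fold change, dek over WT with TMM scaling, of the 53 tested histone genes by class, with standard errors as vertical lines and class medians as horizontal bars; the dashed line marks where 0 lies on the total-count scale. Class medians were 0.11 for H1, -0.44 for H2A, -0.24 for H2B, -0.14 for H3 and -0.34 for H4, and the 2 highest points are an H2A variant 3 gene at 3.54 and an H3 gene at 2.56.

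Among the linker histones, 1 of 7 genes passed the test, and it rose in dek (class median log2 fold change 0.11). With total counts 2 passed, both higher (median 0.42). The gene that rose was GRMZM2G121221, with 114 and 89.9 FPKM in dek A and B, against 50.4 and 47.1 FPKM in WT A and B. Both dek values lay above both WT values, and the fold was 1.72 (log2 0.78 ± 0.146 SE, edgeR adjusted p = 0.0230). It made up 9.92% and 8.84% of H1 FPKM in dek, against 5.85% and 5.31% in WT. The call was lost when dek A, dek B or WT B was left out (edgeR adjusted p = 0.120, 0.0558 and 0.0699).

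The 3 most abundant H1 genes did not pass the test. GRMZM2G401308 (his1a, also hon102) had 382 and 331 FPKM in dek A and B, against 248 and 276 FPKM in WT A and B. GRMZM2G080274 (hon101) had 339 and 335 FPKM in dek, against 272 and 250 FPKM in WT. For both genes the dek values lay above the WT values on FPKM, while the TMM-scaled log2 differences were small, at 0.14 and 0.07 (edgeR adjusted p = 0.460 and 0.727).

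GRMZM2G164020 (hon110) had 239 and 195 FPKM in dek A and B, against 239 and 236 FPKM in WT A and B, and the genotypes overlapped. Its log2 fold change was -0.44 (edgeR adjusted p = 0.0749), and it held 20.9% and 19.1% of H1 FPKM in dek, against 27.8% and 26.6% in WT. Summed H1 FPKM was 1.24 times as high in dek as in WT, and 0.998 times once each library was divided by its TMM factor. The larger H1 share of the histone pool therefore stood beside an H1 level that depended on the scaling.

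H2A was the class with the most members, with means between 0.0875 and 466 FPKM. Of 14 tested genes, 1 rose and 3 fell in dek (median -0.44, and 2 and 2 with total counts, median -0.13). The most abundant was GRMZM2G305046 (his2a1), with 359 and 352 FPKM in dek A and B, against 514 and 638 FPKM in WT A and B. Both dek libraries were below both WT libraries, and it fell in dek (log2 -1.0 ± 0.143 SE, edgeR adjusted p = 0.0121, and 0.0231 with total counts). It held 23.4% and 22.8% of H2A FPKM in dek, against 28.8% and 31.8% in WT. Without dek A or dek B the adjusted p was 0.0589 and 0.0538.

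The H2AXa gene GRMZM2G046055, which encodes the H2A form modified at DNA breaks, had 264 and 306 FPKM in dek A and B, against 399 and 394 FPKM in WT A and B. The genotypes did not overlap, and its log2 fold change was -0.78 ± 0.133 (edgeR adjusted p = 0.0188, 0.0433 with total counts and 0.0728 without dek A). The related H2AXb gene GRMZM5G883764 had 162 and 178 FPKM in dek, against 135 and 139 FPKM in WT. Its FPKM values lay above WT, its log2 fold change was 0.01 ± 0.121, and it did not pass (edgeR adjusted p = 0.963). The third H2A.X gene, GRMZM2G107540, chosen for mention after its values were seen, differed widely between the WT pools. It had 41.7 and 43.9 FPKM in dek, against 41.02 and 79.8 FPKM in WT. H2A.X genes held 30.5% and 34.3% of H2A FPKM in dek, against 32.2% and 30.6% in WT, which overlapped.

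The third H2A gene that fell was GRMZM2G028955, which has no variant name, with 281 and 265 FPKM in dek A and B, against 290 and 328 FPKM in WT A and B. The values nearest each other were 281 in dek and 290 in WT. Its log2 fold change was -0.48 ± 0.121 (edgeR adjusted p = 0.0479), and with total counts it did not pass (adjusted p = 0.333), nor in any fit without 1 library (adjusted p between 0.0723 and 0.183).

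The H2A gene that rose was a low one. GRMZM2G008865, described as a probable H2A variant 3, had 1.57 and 2.48 FPKM in dek A and B, against 0.10 and 0.22 FPKM in WT A and B. It rose in dek by a fitted log2 fold change of 3.54 ± 0.737 (edgeR adjusted p = 0.0301), but WT held only 1.27 and 2.45 estimated counts, against 19.4 and 30.4 in dek. The ratio of summed rounded counts, per library total, was 15.3 with an exact 95% interval of 4.95 to 76.9, which covers counting error only. The call was lost in each of the 4 fits without 1 library (edgeR adjusted p between 0.0722 and 0.184).

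The other H2A genes with a V or variant name did not pass. GRMZM5G852665, an H2A.V-like gene and the most abundant of them, had 101 and 90.8 FPKM in dek A and B, against 102 and 108 FPKM in WT A and B (log2 -0.43 ± 0.118, edgeR adjusted p = 0.0574). GRMZM2G126106, of mixed annotation, had 12.5 and 17.4 FPKM in dek, against 18.2 and 17.5 FPKM in WT. The genotypes did not overlap in either gene, but the nearest values, 17.4 in dek and 17.5 in WT for GRMZM2G126106, almost met. The group held 7.72% and 7.47% of H2A FPKM in dek, against 6.90% and 6.34% in WT.

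Gene models that the authors added to the reference included 3 H2A genes, all under 5 FPKM. BGI_novel_G000467 (H2A.V-like) had 2.28 and 3.16 FPKM in dek A and B, against 1.74 and 1.02 FPKM in WT A and B. BGI_novel_G002022 (H2A.2.1-like) had 0.68 and 1.32 FPKM in dek, against 2.49 and 2.12 FPKM in WT. The dek values lay above WT in the first and below in the second, and neither passed (edgeR adjusted p = 0.384 and 0.0942).

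Of 7 H2B genes tested, 1 passed, and it fell in dek (class median -0.24). With total counts another gene passed instead, and it was higher (median 0.06). The gene that fell was the H2B.1 gene GRMZM2G141432, with 179 and 166 FPKM in dek A and B, against 238 and 197 FPKM in WT A and B. The dek values lay below WT, at a log2 fold change of -0.64 ± 0.139 (edgeR adjusted p = 0.0329), and the call was lost with total counts (adjusted p = 0.127) and without dek A, dek B or WT A (adjusted p = 0.117, 0.129 and 0.105).

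The most abundant H2B gene, GRMZM2G071959 (histone2b1), had 284 and 310 FPKM in dek A and B, against 326 and 338 FPKM in WT A and B, and just missed the threshold (log2 -0.46 ± 0.121, edgeR adjusted p = 0.0521). GRMZM2G306258 had 238 and 223 FPKM in dek, against 206 and 227 FPKM in WT. GRMZM2G342515 (his2b5) had 213 and 234 FPKM in dek, against 215 and 214 FPKM in WT. The genotypes overlapped in both of these genes. Summed H2B was 1270 and 1260 FPKM in dek, against 1287 and 1272 FPKM in WT, a ratio of 0.989. Divided by the TMM factors it was 1126 and 1149 in dek, against 1438 and 1409 in WT, a ratio of 0.799. On that scale the ratio was 0.656 for H2A, 0.816 for H3 and 0.719 for H4, each with no overlap.

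H3 held the gene with the largest fold change among tested members of at least 5 FPKM. Of 13 tested genes, 2 rose and 2 fell (median -0.14), and with total counts 5 passed, all higher (median 0.17). GRMZM2G145758, described only as histone H3, had 78.9 and 76.4 FPKM in dek A and B, against 9.34 and 12.0 FPKM in WT A and B. The genotypes were far apart and the libraries within each close together, and the level rose 5.90-fold in dek (log2 2.56 ± 0.167 SE, edgeR adjusted p = 0.00208).

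The counts of GRMZM2G145758 were whole numbers in all 4 libraries, 951 and 916 in dek, against 111 and 128 in WT, so they bear no mark of divided reads. It was the only one of the 13 called histone genes that passed in each of the 4 fits without 1 library (edgeR adjusted p between 0.000990 and 0.0143). Its part of H3 FPKM was 4.38% and 4.30% in dek, against 0.537% and 0.666% in WT.

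The H3.2 gene GRMZM2G418258 had 90.5 and 90.5 FPKM in dek A and B, against 51.5 and 44.2 FPKM in WT A and B. It rose 1.53-fold (log2 0.62 ± 0.132, edgeR adjusted p = 0.0318), and passed also with total counts (adjusted p = 0.00984). Without dek A, dek B or WT B the call was lost (adjusted p between 0.109 and 0.151). H3.2 genes as a group held 56.1% and 55.8% of H3 FPKM in dek, against 52.0% and 53.7% in WT.

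The 2 most abundant H3 genes were lower in dek with TMM. GRMZM2G118355 had 370 and 373 FPKM in dek A and B, against 420 and 417 FPKM in WT A and B. GRMZM2G051879 had 313 and 299 FPKM in dek, against 385 and 385 FPKM in WT. Both fell, by log2 changes of -0.47 ± 0.111 and -0.63 ± 0.110 (edgeR adjusted p = 0.0409 and 0.0193), and neither passed with total counts (adjusted p = 0.294 and 0.0762). Neither passed in a fit without 1 library (adjusted p between 0.105 and 0.135 for the first and between 0.0561 and 0.0754 for the second).

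The third most abundant, the H3.2 gene GRMZM2G387076, had 275 and 249 FPKM in dek A and B, against 277 and 298 FPKM in WT A and B, and did not pass (log2 -0.45 ± 0.117, edgeR adjusted p = 0.0527). The cenH3 gene GRMZM2G158526 had 16.6 and 17.8 FPKM in dek, against 14.8 and 15.9 FPKM in WT. Its dek values lay just above WT on FPKM, while its log2 fold change was -0.14 ± 0.154 with TMM and 0.17 with total counts, and it passed in neither (edgeR adjusted p = 0.575 and 0.452). The H3 gene GRMZM2G176358, mentioned after its values were seen, had 13.03 and 19.6 FPKM in dek, against 6.65 and 4.51 FPKM in WT. It missed the threshold with TMM (log2 1.22 ± 0.332, edgeR adjusted p = 0.0583) and passed with total counts (adjusted p = 0.0257).

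H4, the most abundant class and the one with divided reads in every gene, had 3 genes past the threshold among 12 tested, all lower in dek (median -0.34), and 1 in each direction with total counts (median -0.03). GRMZM2G332838 had 393 and 375 FPKM in dek A and B, against 471 and 664 FPKM in WT A and B. GRMZM2G016232 had 228 and 228 FPKM in dek, against 445 and 318 FPKM in WT. GRMZM2G073275 had 267 and 260 FPKM in dek, against 320 and 331 FPKM in WT. All dek values of the 3 genes lay below the WT values of the same gene, and in the first 2 genes the WT pools differed more from each other than the dek pools did.

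The log2 fold changes of these H4 genes were -0.87 ± 0.183 for GRMZM2G332838, -1.02 ± 0.179 for GRMZM2G016232 and -0.60 ± 0.110 for GRMZM2G073275 (edgeR adjusted p = 0.0306, 0.0197 and 0.0219). With total counts only GRMZM2G016232 passed (adjusted p = 0.0362, and 0.0739 and 0.0974 for the others). For the 3 genes in the same order, the adjusted p was 0.114, 0.0941 and 0.0896 without dek A and 0.115, 0.0939 and 0.0840 without dek B. Without WT A or WT B it was 0.0536 and 0.0753 for GRMZM2G073275, and without WT B 0.0733 for GRMZM2G332838. The 3 together held 33.6% and 34.9% of H4 FPKM in dek A and B, against 45.1% and 43.7% in WT A and B. Summed H4 was 2640 and 2471.3 FPKM in dek, against 2742 and 3005 FPKM in WT.

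**Figure D3:**
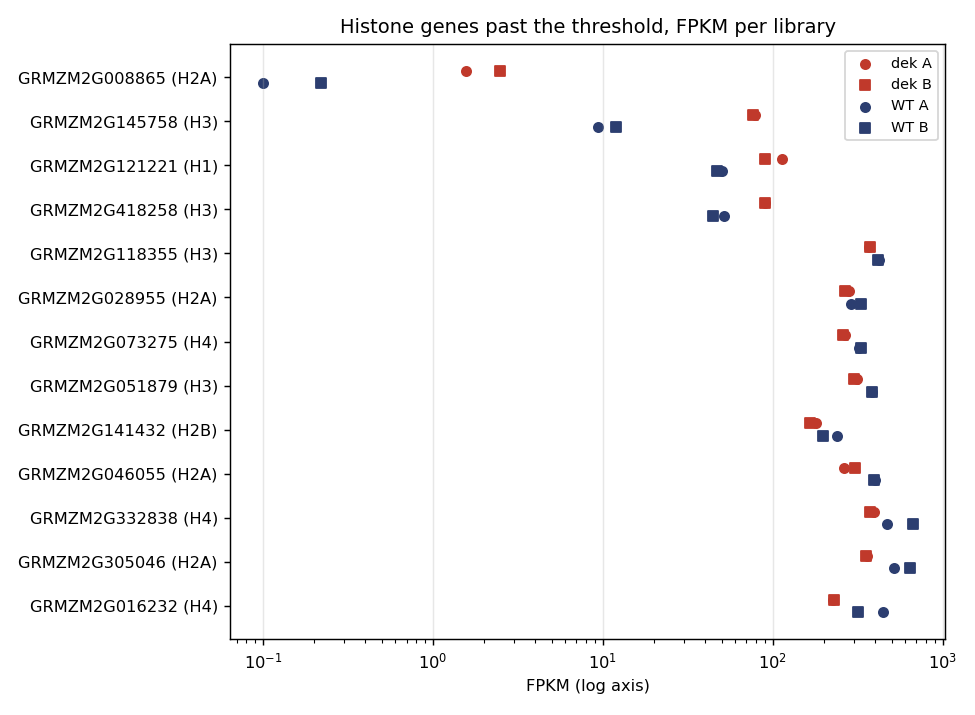
FPKM on a log axis in each library for the 13 histone genes past the threshold, ordered by fold change, with dek in red above WT in blue and circles and squares for libraries A and B. GRMZM2G145758 lies at 78.9 and 76.4 FPKM in dek and at 9.34 and 12.0 FPKM in WT, whereas the 9 genes that fell all lie at 166 FPKM or above in every library.

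The abundant members had the lower fold changes. Of the 21 tested members with a mean of at least 200 FPKM, 8 passed, all lower in dek (median -0.45), whereas 3 rose and 1 fell of the 27 between 5 and 200 FPKM (median -0.05). All genes of at least 200 FPKM also leaned lower, with 5.02% higher and 29.6% lower of 558 (median -0.30). Between 5 and 200 FPKM, 8.54% were higher and 11.3% lower of 13379 (median -0.05). Over the 48 tested members of at least 5 FPKM, Spearman's rho of mean FPKM and log2 fold change was -0.64, beside -0.15 over 13937 genes, given as a description because these genes share libraries and reads.

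**Figure D4:**
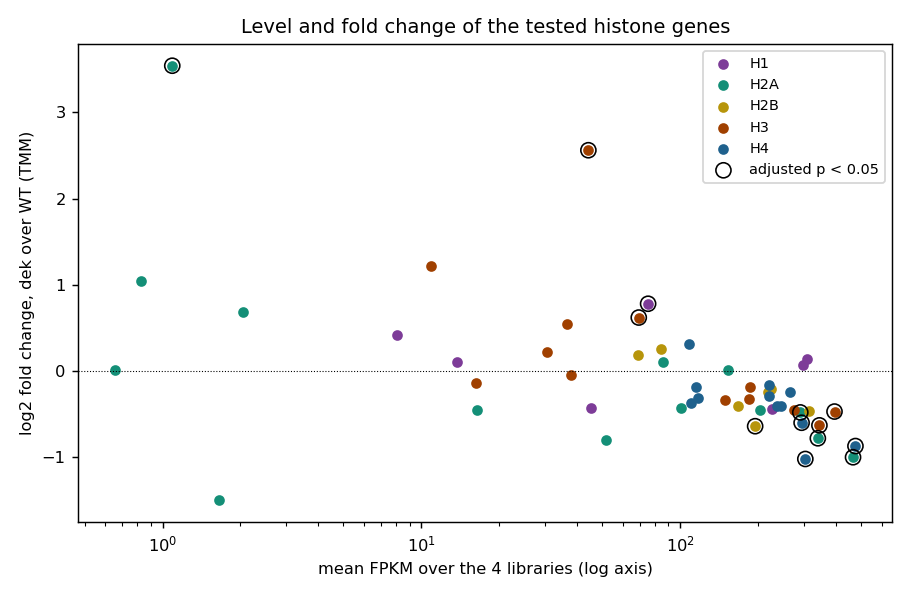
Log2 fold change (dek over WT, TMM) against mean FPKM over the 4 libraries on a log axis for the 53 tested histone genes, coloured by class, with rings on genes past the threshold. The 8 ringed genes of at least 200 FPKM lie below 0, and 3 ringed genes between 5 and 200 FPKM lie above it.

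Shares of the leading genes within their class were compared next. The 3 most abundant H3 genes held 53.2% and 51.8% of H3 FPKM in dek A and B, against 62.2% and 61.1% in WT A and B. For H2A the 3 most abundant held 59.0% and 59.9% in dek, against 67.4% and 67.9% in WT, and for H1 they held 83.8% and 84.6% in dek, against 88.0% and 85.9% in WT. In H2B the shares overlapped, at 57.8% and 60.9% in dek, against 58.1% and 61.2% in WT. As with the 3 leading H4 genes above, the 3 leading genes of H2A and H3 together held less of their class in each dek library than in either WT library. Apart from the H3.2 gene GRMZM2G387076, all leading genes of H2A, H3 and H4 were also called lower above. Their joint shares thus rest in part on the same values as those calls. In H2A and H1 the lower joint share did not extend to each gene. Of the 3 leading H2A genes, his2a1 alone had a lower share in each dek library than in either WT library. GRMZM2G028955 held 18.3% and 17.2% of H2A FPKM in dek, against 16.3% and 16.4% in WT. The H2AXa gene GRMZM2G046055 held 17.2% and 19.9% in dek, against 22.4% and 19.6% in WT, which overlapped. The most abundant H1 gene, his1a, held 33.4% and 32.6% of H1 FPKM in dek, against 28.8% and 31.1% in WT. Of the other leading H1 genes, hon101 held 29.6% and 32.9% in dek, against 31.5% and 28.2% in WT. The share of hon110 was 20.9% and 19.1% in dek, against 27.8% and 26.6% in WT. Of these 3 H1 genes, hon110 alone had a lower share in each dek library than in either WT library. These shares do not depend on scaling and were not tested.

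Histone genes that lie next to each other did not keep their ratio in every case. Only 25 of the 56 members could be placed, by a single identifier match, in the gene order of RefSeq's Zm-B73-REFERENCE-NAM-5.0 table. Among those placed, 3 neighbouring pairs of different classes lay within 9 genes of each other. Neighbours among the unplaced members could not be seen. The H2A gene his2a1 and the H2B.1-like gene GRMZM2G305027 are adjacent, and their FPKM ratio was 3.43 and 3.62 in dek A and B, against 6.74 and 10.6 in WT A and B. GRMZM2G305027 itself had 105 and 97.0 FPKM in dek, against 76.2 and 60.5 FPKM in WT (log2 0.26 ± 0.150, edgeR adjusted p = 0.279). The other adjacent pair, H2A gene GRMZM2G047813 over H2B gene GRMZM2G079089 (trh1), had ratios of 1.27 and 1.14 in dek, against 1.19 and 1.27 in WT, which overlapped. In the third pair, with 2 genes between, the H2B gene GRMZM2G057852 over the H4 gene GRMZM2G332838 gave 0.229 and 0.188 in dek, against 0.114 and 0.0912 in WT.

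Core histone synthesis is coupled to DNA replication, and of 37 replication genes chosen by description 32 were tested. With TMM 5 rose and 1 fell (median 0.24), and with total counts 14 passed, all higher (median 0.55). Over all tested genes, 7.98% were higher and 8.85% lower with TMM (median 0.01). With total counts the all-gene shares were 18.3% and 5.19% (median 0.32). PCNA1 (GRMZM2G030523), the sliding clamp of the replication fork, had 93.9 and 97.98 FPKM in dek A and B, against 51.0 and 43.4 FPKM in WT A and B (log2 0.72 ± 0.136, edgeR adjusted p = 0.0238). The large subunit of ribonucleotide reductase (GRMZM2G304362), which makes deoxyribonucleotides, had 34.1 and 30.3 FPKM in dek, against 14.3 and 17.1 FPKM in WT (log2 0.73 ± 0.137, edgeR adjusted p = 0.0230). Neither gene's genotypes overlapped. An abundant small-chain gene of the same enzyme (GRMZM2G060163) had 101.6 and 81.2 FPKM in dek, against 69.15 and 54.99 FPKM in WT. That gene did not pass (log2 0.25 ± 0.17, edgeR adjusted p = 0.348). A much less abundant small-chain gene (GRMZM2G155546) had 23.8 and 15.6 FPKM in dek, against 0.59 and 0.78 FPKM in WT. GRMZM2G155546 rose 23.3-fold (log2 4.54 ± 0.304, edgeR adjusted p = 0.00216). It was the replication gene with the largest fold change past the threshold, and it passed in each of the 4 fits without 1 library (adjusted p between 0.00135 and 0.0113). A gene like replication protein A, the single-strand binding protein (GRMZM2G010636), fell, with 38.0 and 51.9 FPKM in dek, against 101 and 69.6 FPKM in WT (log2 -1.35 ± 0.305, edgeR adjusted p = 0.0365, and 0.0516 with total counts).

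Histone chaperones carry histones to DNA. A list of 18 genes held chaperones and assembly factors by description, HMG-like ones and SWR1 helicases among them. Of 17 tested, 1 rose and 1 fell (median -0.02), and 3 rose and 1 fell with total counts (median 0.29). Over all tested genes, 7.98% were higher and 8.85% lower with TMM, and 18.3% and 5.19% with total counts. A nucleosome assembly factor of group A (GRMZM2G140051) had 202 and 175 FPKM in dek A and B, against 91.4 and 89.8 FPKM in WT A and B (log2 0.75 ± 0.121, edgeR adjusted p = 0.0163). An FSM-like subunit of chromatin assembly factor 1 (GRMZM2G317051), which deposits H3 and H4 during replication, had 0.53 and 0.74 FPKM in dek, against 2.25 and 1.85 FPKM in WT (log2 -2.07 ± 0.347, edgeR adjusted p = 0.0177). The libraries of the genotypes did not overlap in either gene. Of the replication and assembly genes named that passed, all but GRMZM2G155546 lost their call without dek A and without dek B. The difference between these lists and the histones was not tested.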

How the data were processed

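RNA was sequenced from 2 pooled dek and 2 pooled WT endosperm libraries. Deposited values were, per the file headers, expected counts and FPKM for each gene in each library. The deposited expected counts carry no further normalization, and 23.2% of them were fractional at a tolerance of 0.001. FPKM was computed by the authors and is scaled to gene length and to the fragments of the library, per the file headers. HISAT, GATK, Bowtie2 and RSEM are named in the submitters' processing notes, without versions or roles; the sources used here give no build, annotation or strand handling. Genes missing from a table were taken as 0.

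Counts were rounded and fitted with edgeR 4.0.16 in R 4.3.3 (quasi-likelihood test, TMM, filterByExpr, two-sided, no block), with Benjamini-Hochberg adjustment over 24624 genes and a biological coefficient of variation of 0.226. SE is the size of the log2 fold change divided by the root of F. P-values rest on the spread between pools, which the fit estimates in part from other genes. They do not measure the spread between ears. Letters were not taken as pairs, because which pools shared an ear is not given. Deviations of same-lettered libraries correlated at -0.0218 between genotypes over the tested genes, which cannot tell whether they shared an ear. Means, shares and ratios of FPKM were computed with Python 3.11.15 and pandas 2.3.3, intervals with scipy 1.17.1 and figures with matplotlib 3.10.9.

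Alternatives were DESeq2 1.42.0, limma 3.58.1 on log2(FPKM + 1) or log2(FPKM + 0.1), other scalings and filters, a replicate block, other member sets and each library left out in turn. Names came from the descriptions and from RefSeq, where 27 members matched by model identifier and 9 by protein accession, 20 matched none and 2 matched several genes. Protein and promoter sequences were not used here, so variants rest on descriptions.

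Members and lists were chosen with earlier results of these data known. Genes named were every member past the threshold, the 3 with the highest mean FPKM of each class, the 2 highest of each variant group and of the added models, and the 3 highest past the threshold in the other lists. GRMZM2G107540, GRMZM2G176358, GRMZM2G155546, GRMZM2G060163 and the neighbouring and untested genes were named after their values were seen.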

Additional observations from a re-analysis of the deposited data

How the results depend on the processing

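Of 439 comparisons of named genes with an alternative, 328 kept direction and side of the threshold, 94 lost the threshold, 5 gained it and 12 changed sign, 0 of these with a call in either fit. The sign changes were 0.17, 0.1 and 0.06 with total counts for cenH3, GRMZM2G306258 and his2b5, which became 0.16, 0.09 and 0.06 with limma at either pseudocount, and, for hon101 and the H2AXb gene, values between -0.0 and 0.13 and between -0.1 and 0.08 without 1 library. Counts are given as higher and lower in dek. Total counts gave 4502 and 1279 of all genes, 11 and 3 histones (median 0.06), 2 H1 (median 0.42) and 2 H2A genes higher (median -0.13), 1 and 0 for H2B (0.06), 5 and 0 for H3 (0.17), 1 and 1 for H4 (-0.03), 14 and 0 for replication and 3 chaperones higher (median 0.29). Limma on log2 FPKM gave the same histone and class counts with a pseudocount of 1 and of 0.1 (medians 0.06 for all histones, 0.38 and 0.41 for H1, -0.14 for H2A, 0.06 for H2B, 0.16 for H3, -0.04 for H4, 0.23 and 0.24 for chaperones), 4483 and 1326 or 4145 and 1260 of all genes, 15 or 13 replication genes and 2 chaperones higher. The replicate block by title letter assumes pairs that the labels do not give. It gave 811 and 1080 of all genes, 2 and 4 histones, 0 H2A higher and 0 H2B lower. It also gave 1 and 1 for H3, 1 H4 lower, 1 and 0 for replication and 0 chaperones lower. DESeq2's Wald test gave 17 histones lower (1 H1, 5 H2A, 3 H2B, 3 H3 and 5 H4), 4 H3 genes higher and 2 replication genes lower. All 13 called histones passed there too. Upper-quartile factors gave 1 H3 gene lower and medians of -0.21 for H2B, -0.1 for H3 and 0.02 for chaperones, no filter gave -0.33 for H2B, and a minimum of 50 counts in 2 libraries gave 0 H2A genes higher and 2 H2B genes lower.

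Sums of estimated counts in place of FPKM gave dek over WT ratios of 1.02 for all histones, 0.875 for H2A, 1.04 for H2B, 1.07 for H3, 0.951 for H4, 1.01 for H2A.V names, 1.14 for H3.2, 0.986 for unnamed H3 and 1.2 for cenH3, because libraries then keep their depth. CPM gave 0.978 for H2B and 0.926 for unnamed H3. Without the most abundant gene the ratios were 0.896 for H2A, 1.02 for H2B, 1.05 for H3, 0.942 for H4, 1.08 for H2A.X, 1.04 for H2A.V names, 1.14 for H3.2 and 0.997 for unnamed H3, and the within-library ratios were 1.27 for H1 over core and 0.876 for H2A over H2B. Leaving out members without a histone annotation entry, an alternative chosen after seeing the data, changed no call.

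Without 1 library the counts ran from 281 to 1731 higher and 465 to 1966 lower over all genes, and from 1 to 4 and 0 to 6 for histones (median -0.34 to -0.15; over all genes -0.02 to 0.04). Class medians ran from -0.35 to -0.24 for H2B, -0.18 to -0.08 for H3 and -0.42 to -0.29 for H4. By class, higher and lower ran from 0 to 1 and 0 to 1 for H1, 0 to 0 and 0 to 3 for H2A, 1 to 3 and 0 to 0 for H3, with 0 to 1 lower for H2B and 0 to 2 for H4. Replication ran from 1 to 2 and 0 to 1, and chaperones from 0 to 1 in each direction. FPKM ratios ran from 0.766 to 0.861 for H2A, 0.983 to 0.994 for H2B, 0.993 to 1.03 for H3 and 0.851 to 0.932 for H4, and within-library ratios from 1.29 to 1.41 for H1 over core and 0.771 to 0.876 for H2A over H2B. Of the 13 called histones, 1 passed without dek A, 2 without dek B, 7 without WT A and 5 without WT B; the lone library is then assumed to vary like the other group. The cause of these changes was not tested beyond the smaller number of libraries.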
